A study of Mus musculus with 5 samples.

Results

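RNA of control hepatocytes was compared between the positive and the negative gate of a sort on a fluorescent probe for fatty acid oxidation (FAO). The comparison takes in 2 of the 5 libraries, 1 per gate, chosen by their labels alone. It covers 8981 of the 13966 genes measured, those with a mean normalised read count of at least 5 over the 5 libraries. The hepatocytes came from livers of ICR mice, an outbred stock, that had received the probe. The control libraries carry no drug label, and the other 3 libraries are negative, positive and high gates of ICR mice labelled with bezafibrate, which activates peroxisome proliferator-activated receptors (PPARs). Per the series' design text, the sort was made to learn how hepatocytes differ in FAO activity. Not given in the sources used here are the number, sex and age of the mice, the dose, and whether 1 liver gave both control gates. Since each gate has 1 library, differences are those of these libraries, without replicates to set them against.

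Hepatocytes differ along the liver lobule, from the portal vein, where blood enters, to the central vein, where it leaves. Periportal cells are known for gluconeogenesis, urea synthesis and amino acid breakdown. Pericentral cells, which receive Wnt signals from the endothelium of the central vein, are known for glutamine synthesis, cytochrome P450 enzymes and bile acid synthesis. Fatty acids enter mitochondria as carnitine esters and are shortened in the matrix by beta-oxidation. Very long chains are first shortened in peroxisomes, and omega-oxidation by Cyp4 enzymes begins at the other end of the chain. PPARalpha, the receptor that bezafibrate activates, drives many genes of these routes.

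The libraries held 5454866 reads in the negative and 5056884 in the positive gate, and the deepest of the series held 7146578. The ribosomal RNA precursor Rn45s took 36.3% of reads in the negative and 34.8% in the positive gate. Rpph1, the RNA of ribonuclease P, was at 831 in the negative and 482 in the positive gate, and Rmrp, the RNA of a related enzyme, at 3536 and 2962. The 10 hepatocyte markers, led by Alb, summed to 48735 and 47061 normalised read counts, with 0 of the 10 at zero. Kupffer cell markers summed to 77.8 in both gates, of which Slc40a1, the iron exporter that hepatocytes also express, held 67.3 and 67.9. Endothelial markers summed to 47.8 and 38.2, a ratio of 0.798 (0.652 to 0.974) over 12 markers, 0 of them at zero in both gates. Stab2 held 20.7 and 13.4 of these sums, and of the 3 endothelial markers above the mean filter 2 were higher and 1 lower in the positive gate. Stellate markers summed to 105 and 114, nearly all Reln. Of the cholangiocyte markers, Krt19 was at 0.616 and 0.431 and Epcam at 1.03 and 0.431. Markers of T and NK cells, B cells and neutrophils each summed to at most 3.45, those of platelets to at most 9.05 and those of red cells to at most 25.3. The part of endothelial or other RNA in the differences below was not tested. Fewer cells of a type and less RNA per cell cannot be told apart in such bulk samples.

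Differences are positive minus negative on the log2(value + 1) scale, which understates those of low genes. Ratios are of the deposited values, positive to negative, with 95% Clopper-Pearson intervals that cover counting error only. Over all genes analysed the median difference was 0.01, with 52.1% above 0 and 47.9% below. In 13 genes (0.145%) the positive gate was at least 2-fold higher, and in 17 (0.189%) at least 2-fold lower. Among the 2368 genes with a mean of at least 50 over the 2 gates, 59 (2.49%) were at least 1.2-fold higher and 35 (1.48%) at least 1.2-fold lower. The counting interval lay above 1 for 442 genes (4.92%) and below 1 for 396 (4.41%). When each library was instead scaled to its column total, these pairs became 15 and 11, 74 and 20, and 716 and 262, and the median of all genes moved by 0.04. The scatter grew as counts fell: with genes ranked by level and parted into 5 equal bins, the median absolute difference was 0.07 in the highest bin and 0.24 in the lowest. In 5 bins of transcript length the medians lay between 0.00 and 0.02.

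**Figure D1:**
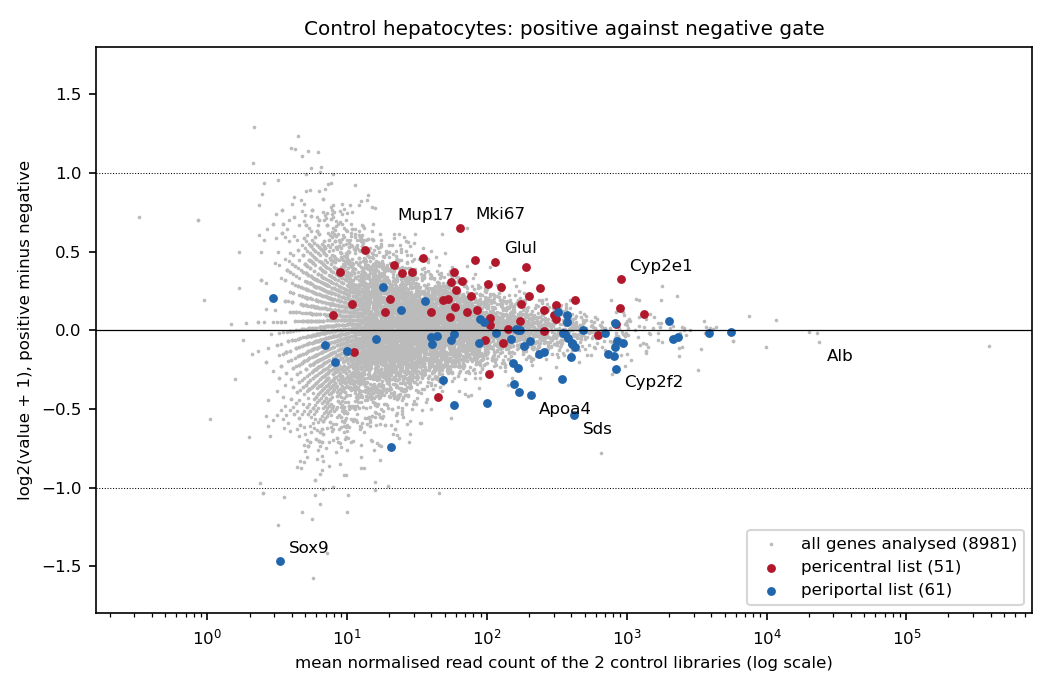
Log2 difference between the control gates (vertical axis, positive minus negative) against the mean normalised read count of the 2 libraries (horizontal axis, log scale) for 8981 genes, with 3 genes outside the axis; dotted lines mark 2-fold. Most pericentral genes (red, 51) lie above the line at 0 and most periportal genes (blue, 61) below it, and few genes of high count lie far from 0.

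Genes of pericentral hepatocytes were mostly higher in the positive gate. Of 56 genes on the list, 51 were analysed, and their median difference was 0.17 against 0.01 over all genes. The positive gate was higher for 44 and lower for 7, and the interval lay above 1 for 24 (47.1% of the list, against 4.92% of all genes) and below 1 for 2. Of the 37 with a mean of at least 50, 11 were at least 1.2-fold higher (29.7%, against 2.49%) and 1 at least 1.2-fold lower. The summed list was at 9087 in the negative and 10031 in the positive gate, a ratio of 1.10 (1.09 to 1.12). Earlier results of these data were known when the list was chosen, so its direction is a description.

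Among genes of ammonia and glutamate handling, Glul, the glutamine synthetase of the cells around the central vein, was at 97.3 in the negative and 132 in the positive gate (ratio 1.36, 1.201 to 1.53). Oat, which turns ornithine into glutamate precursors, was at 70.4 and 82.1 (ratio 1.17, 1.01 to 1.35). Slc1a2, a glutamate carrier, was at 56.0 and 62.3 (ratio 1.11, 0.939 to 1.32), within counting error. All 5 analysed genes of this group were above 0, with a median of 0.22, and 2 intervals lay above 1. Rhbg, an ammonium channel of the same cells, was below the mean filter, at 4.11 and 4.10.

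The 24 enzymes of drug and steroid metabolism had a median of 0.21, with 22 above 0, 15 intervals above 1 and 0 below. Cyp2e1, which oxidises ethanol and small solvents, was at 805 and 1007 (ratio 1.25, 1.198 to 1.31). Cyp1a2, which oxidises aromatic amines, was at 218 and 263 (ratio 1.21, 1.11 to 1.31). Cyp2c29, a fatty acid epoxygenase with close copies in its cluster, was at 164 and 217 (ratio 1.32, 1.204 to 1.45). These abundant P450 genes stood above the counting error. Cyp7a1, the rate-limiting enzyme of bile acid synthesis, was at 29.2 and 40.5 (ratio 1.39, 1.11 to 1.74). Cyp3a11, a steroid hydroxylase, was at 830.5 and 853 (ratio 1.03, 0.983 to 1.07). Aldh1a1, which makes retinoic acid, was at 140 and 141 (ratio 1.01, 0.903 to 1.12). For the last 2 the interval took in 1, as it did for Ces2a, a carboxylesterase at 99.4 and 95.1.

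The other 22 pericentral genes were less uniform, with a median of 0.11, 17 above 0, 7 intervals above 1 and 2 below. Gulo, the last enzyme of vitamin C synthesis in mice, was at 69.6 and 95.1 (ratio 1.37, 1.18 to 1.58). Urad, an enzyme of urate breakdown, was at 10.9 and 16.0 (ratio 1.47, 1.02 to 2.13). Alas1, the first enzyme of heme synthesis, was at 1271 and 1367 (ratio 1.07, 1.04 to 1.11). The exceptions were Amdhd1, an enzyme of histidine breakdown at 114 and 93.6 (ratio 0.823, 0.724 to 0.934), and the sulfotransferase Sult5a1 at 51.3 and 37.9 (ratio 0.739, 0.606 to 0.900).

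Genes on the list of Wnt and beta-catenin targets, which leaves out Glul, Cyp2e1, Cyp1a2 and Oat, were mostly low. For none of its genes analysed did the interval leave 1. Of the 8 analysed, 7 were above 0, with a median of 0.11, and the summed list was at 389 in the negative and 416 in the positive gate (ratio 1.07, 1.003 to 1.14). Axin2, which feeds back on the pathway, was at 5.54 and 6.47 (ratio 1.17, 0.670 to 2.04). Tbx3, a repressor of pericentral hepatocytes, was at 14.6 and 17.5 (ratio 1.198, 0.860 to 1.67). Lgr5, the R-spondin receptor, lay below the filter at 2.87 and 5.39 (ratio 1.87, 0.938 to 3.902). Znrf3, which removes Wnt receptors, was at 24.6 and 30.6 (ratio 1.24, 0.968 to 1.598), and Prox1 at 139 and 142 (ratio 1.03, 0.919 to 1.14). At these counts a difference of the size seen for Glul was not detectable for Axin2 or Tbx3. The 22 receptors, ligands and transducers of the pathway had a median of 0.00, with 11 above 0 and 11 below.

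To show 2 genes that were higher and 1 that was lower in the positive gate beside each other, the 250 bases before the start of Glul, Cyp2e1 and the periportal gene Cyp2f2 are printed 5′ to 3′ from RefSeq, build GRCm38.p6, all on the plus strand. They cover chr1:153899679-153899928, chr7:140763569-140763818 and chr7:27119705-27119954. Capitals mark CTTTGA, the core bound by TCF and LEF factors of the Wnt pathway, or CAAAG, part of the site of the hepatocyte factor HNF4A, on either strand (TCAAAG and CTTTG on the other).
Glul: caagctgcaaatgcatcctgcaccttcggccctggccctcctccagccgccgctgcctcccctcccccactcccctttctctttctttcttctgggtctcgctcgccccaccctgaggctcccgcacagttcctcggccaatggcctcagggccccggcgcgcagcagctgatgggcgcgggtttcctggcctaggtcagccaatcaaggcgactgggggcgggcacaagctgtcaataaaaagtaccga
Cyp2e1: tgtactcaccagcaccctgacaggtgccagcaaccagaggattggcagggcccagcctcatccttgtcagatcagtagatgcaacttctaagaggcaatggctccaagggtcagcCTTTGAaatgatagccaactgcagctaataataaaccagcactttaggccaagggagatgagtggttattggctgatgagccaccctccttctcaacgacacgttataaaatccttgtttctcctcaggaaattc
Cyp2f2: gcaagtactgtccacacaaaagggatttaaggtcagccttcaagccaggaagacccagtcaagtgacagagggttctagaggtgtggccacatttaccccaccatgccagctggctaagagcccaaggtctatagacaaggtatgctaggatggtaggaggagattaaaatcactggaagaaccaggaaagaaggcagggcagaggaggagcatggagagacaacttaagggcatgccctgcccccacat
Cyp2e1 holds 1 run in capitals, a CTTTGA that also holds CTTTG, and the other 2 windows hold neither motif. Windows of this length held CTTTGA in 14.05% of 27025 genes and in 11.1% of the 6922 genes analysed that have a window. The shares were 31.8% for pericentral genes (14 of 44) and 23.9% for periportal genes (11 of 46). CAAAG was held by 48.8% of all genes, 42.8% of those analysed, 70.5% of pericentral (31) and 54.3% of periportal genes (25). These are matches of letters in 1 window per gene, gene copies share sequence, and nothing here measured binding.

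Genes of periportal hepatocytes were mostly lower in the positive gate, by less. Of 63 on the list, 61 were analysed, with a median difference of -0.07, 46 below 0 and 15 above. The interval lay below 1 for 24 (39.3% of the list, against 4.41% of all genes) and above 1 for 3. Of the 47 with a mean of at least 50, 7 were at least 1.2-fold lower (14.9%, against 1.48%) and 0 at least 1.2-fold higher. The summed list was at 31518 in the negative and 30239 in the positive gate, a ratio of 0.959 (0.953 to 0.966). Under scaling to column totals 39 were below 0 and 22 above, with 17 intervals below 1 and 4 above. Of all 8981 genes 3568 were below 0 and 5411 above under that scaling.

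Enzymes of amino acid breakdown held the largest difference among the 47. This was Sds, serine dehydratase, which was at 499 in the negative and 343 in the positive gate (ratio 0.688, 0.645 to 0.733). Hal, which starts histidine breakdown, was at 174 and 137 (ratio 0.787, 0.709 to 0.874). Uroc1 and Ftcd, which act after it, were at 856 and 765 (ratio 0.894, 0.854 to 0.935) and at 771 and 695 (ratio 0.901, 0.859 to 0.945). With Amdhd1, all 4 enzymes from histidine to glutamate were lower in the positive gate, and their sum was at 1915 and 1690 (ratio 0.883, 0.857 to 0.910); this grouping was made after the values were seen. Gls2, the liver glutaminase, was at 166 and 143 (ratio 0.865, 0.780 to 0.960). Aldh1b1, a mitochondrial aldehyde dehydrogenase, was at 67.1 and 48.1 (ratio 0.716, 0.601 to 0.852). Of the 25 genes in this group 20 were below 0 and 12 intervals lay below 1.

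Urea cycle genes differed by less than Sds. Cps1, its entry enzyme, was at 5602 and 5547 (ratio 0.990, 0.973 to 1.01), and under scaling to column totals its difference was 0.02 above 0. Ass1, which joins citrulline and aspartate, was at 967 and 914 (ratio 0.946, 0.907 to 0.986). Asl, which splits argininosuccinate, was at 423 and 376 (ratio 0.887, 0.832 to 0.946). Arg1, which releases urea, was at 418 and 393 (ratio 0.941, 0.883 to 1.002). Asl stood farthest from 1 of these 4. Gluconeogenesis had a median of -0.02 over 8 genes: Pck1 was at 3917 and 3860.3 (ratio 0.986, 0.966 to 1.01), and took the other sign (0.02) under column totals. G6pc, the last step of glucose release, was at 1973 and 2057 (ratio 1.04, 1.01 to 1.07), the 1 gene of the group whose interval lay above 1.

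Of the other 28 periportal genes 20 were below 0, with 11 intervals below 1 and 1 above. Cyp2f2, a P450 of periportal cells, was at 903 and 762 (ratio 0.844, 0.807 to 0.882). Apoa4, a lipoprotein component, was at 236 and 177 (ratio 0.750, 0.685 to 0.821). Pigr, which carries IgA into bile, was at 381 and 307 (ratio 0.805, 0.751 to 0.863). Hsd17b6, a hydroxysteroid dehydrogenase, was at 192 and 147 (ratio 0.762, 0.689 to 0.842). Mfsd2a, a carrier of lysophospholipids, was at 115 and 83.2 (ratio 0.722, 0.633 to 0.824). Sox9, a factor of bile duct cells and of hepatocytes beside the portal tract, was at 5.34 and 1.29 (ratio 0.242, 0.0816 to 0.602), which rests on few reads. Elovl5, a fatty acid elongase, went the other way, at 310.4 and 337 (ratio 1.08, 1.01 to 1.16). The 7 genes of the middle of the lobule lay between, with a median of 0.02.

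**Figure D2:**
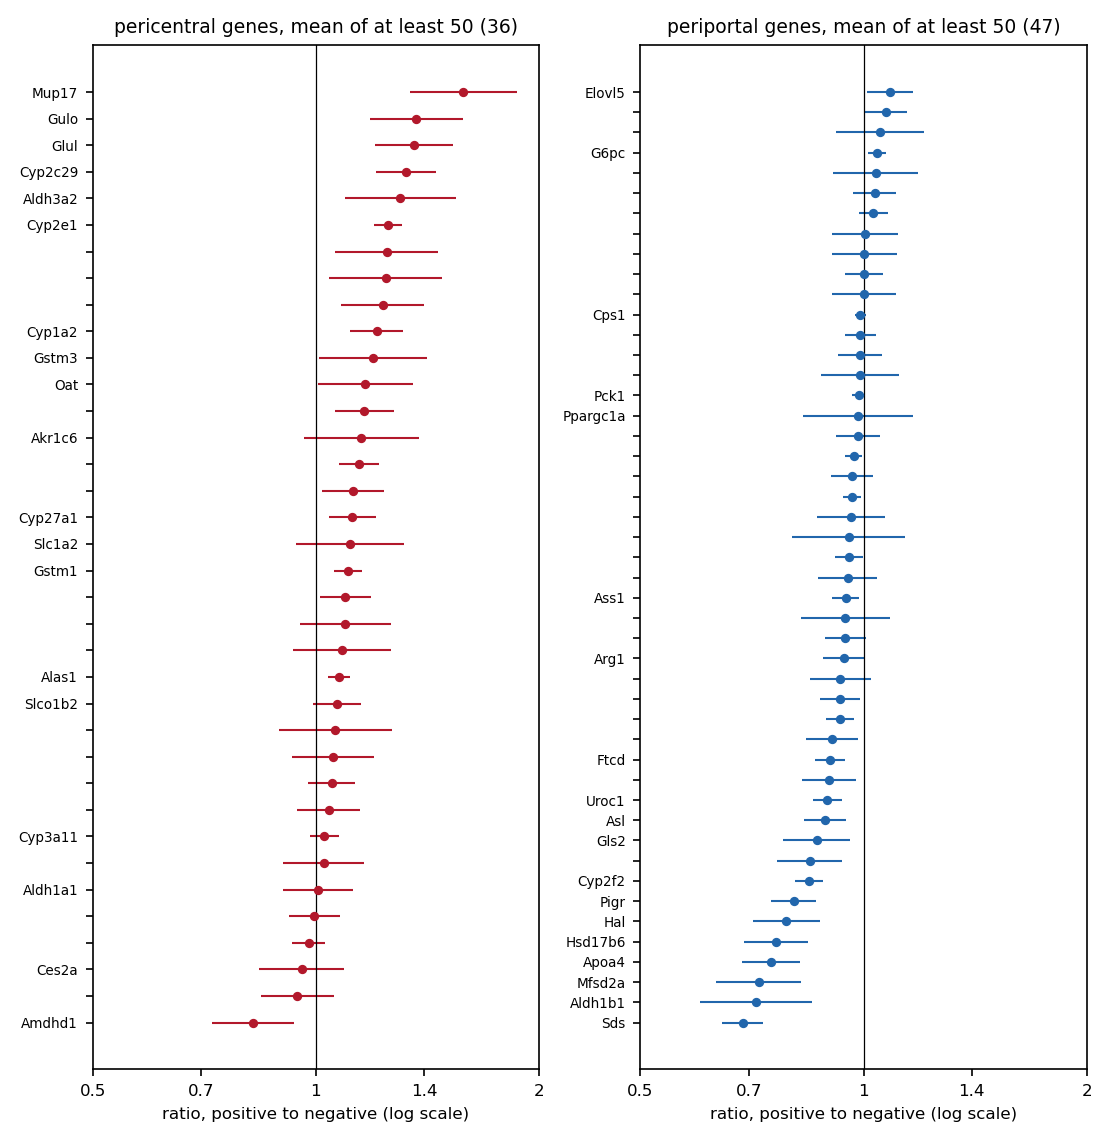
Ratio of the positive to the negative control gate (horizontal axis, log scale) for 36 of the 37 pericentral (left; 1 gene is not shown) and 47 periportal genes (right) with a mean of at least 50, with names for genes described in the text; points are ratios and bars 95% counting intervals, with 1 library per gate. Mup17 (ratio 1.58) and Gulo (1.37) stand at one end of the pericentral genes and Amdhd1 (0.823) at the other, while the periportal genes reach from Elovl5 (1.08) to Sds (0.688).

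Of the FAO routes, the carnitine shuttle and beta-oxidation had medians from -0.02 to 0.03, and fatty acid uptake and omega-oxidation higher ones. Fatty acid uptake, binding and activation had a median of 0.09 over 19 genes, with 15 above 0 (78.9%, against 52.1% of all genes). The interval lay above 1 for 1 gene, a share of 5.26% near the 4.92% of all genes. That gene was Fabp1, the fatty acid binding protein of liver, at 447 in the negative and 484 in the positive gate (ratio 1.08, 1.02 to 1.15). Acsl1, which activates long chains to acyl-CoA, was at 1526 and 1542 (ratio 1.01, 0.978 to 1.04). Slc27a2, an acyl-CoA synthetase and carrier, was at 941 and 924 (ratio 0.982, 0.941 to 1.02).

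The carnitine shuttle list had a median of 0.03 over 10 genes, and for all 10 the interval took in 1. Its most abundant member, Acaca, is an enzyme of fatty acid synthesis and not of the shuttle itself, at 343 and 327 (ratio 0.953, 0.889 to 1.02). Cpt1a, which makes acylcarnitine at the outer membrane and is the main control point of entry, was at 342 and 325 (ratio 0.949, 0.885 to 1.02). Cpt2, which returns the chain to CoA inside, was at 23.0 and 25.2 (ratio 1.10, 0.839 to 1.43). Slc25a20, the carnitine exchanger between them, was at 22.8 and 21.6 (ratio 0.946, 0.715 to 1.25). The intervals leave room for differences of about the size of that of Cyp2e1 in Cpt2 and Slc25a20, but not in Cpt1a.

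Mitochondrial beta-oxidation had a median of -0.02 over 26 genes, 12 above 0 and 14 below, and its sum was at 1603 and 1639 (ratio 1.02, 0.991 to 1.06). Acadvl, the dehydrogenase of very long chains, was at 159 and 182 (ratio 1.15, 1.04 to 1.27). Eci2, an isomerase for unsaturated chains, was at 99.4 and 114 (ratio 1.15, 1.01 to 1.30). These were the 2 genes with an interval above 1 (7.69% of the list, against 4.92% of all genes), and 0 lay below 1. Acadm, for medium chains, was at 71.0 and 78.7 (ratio 1.11, 0.954 to 1.29). Hadha, a subunit of the trifunctional protein, was at 102 and 98.7 (ratio 0.964, 0.847 to 1.10). Echs1, the short-chain hydratase, was at 41.9 and 34.9 (ratio 0.834, 0.674 to 1.03). Under scaling to column totals 19 of the 26 genes were above 0 and 7 below, with a median of 0.02. Under that scaling 5411 of all 8981 genes were above 0, and the median of all genes was 0.05. With totals taken without Rn45s 12 of the 26 were above 0 and 14 below.

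Peroxisomal beta-oxidation had a median of 0.03 over 27 genes, with 18 above 0, 4 intervals above 1 (14.8%, against 4.92% of all genes) and 0 below, and a summed ratio of 1.04 (1.03 to 1.06). Ehhadh, the bifunctional enzyme, was at 72.9 and 87.5 (ratio 1.201, 1.04 to 1.39). Acaa1b, a thiolase with a close copy in Acaa1a, was at 714 and 815 (ratio 1.14, 1.09 to 1.19). Scp2, whose longer product is a thiolase, was at 1406 and 1507 (ratio 1.07, 1.04 to 1.11). For each of these 3 the interval lay above 1. The 18 peroxins, which build peroxisomes, had a median of -0.01, with 8 above 0 and 10 below.

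Omega-oxidation had a median of 0.13 over 13 genes, with 10 above 0 (76.9%, against 52.1% of all genes), 4 intervals above 1 (30.8%, against 4.92%) and 0 below. Cyp4a14 and Cyp4a10, omega-hydroxylases and PPARalpha targets, were at 318 and 355 (ratio 1.12, 1.04 to 1.198) and at 117 and 131 (ratio 1.12, 0.999 to 1.26). Cyp4a32, a close copy of them, was at 48.5 and 62.1 (ratio 1.28, 1.08 to 1.53). Adh1, an alcohol dehydrogenase, was at 262 and 287 (ratio 1.10, 1.01 to 1.18), and Aldh3a2, the fatty aldehyde dehydrogenase, which the pericentral list also holds, at 50.3 and 65.3 (ratio 1.30, 1.09 to 1.54). Without families of near-identical copies the median of the list was 0.04. The 6 Cyp4a genes, among which reads can be split unevenly, summed to 690.3 in the negative and 777 in the positive gate (ratio 1.13, 1.07 to 1.18).

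**Figure D3:**
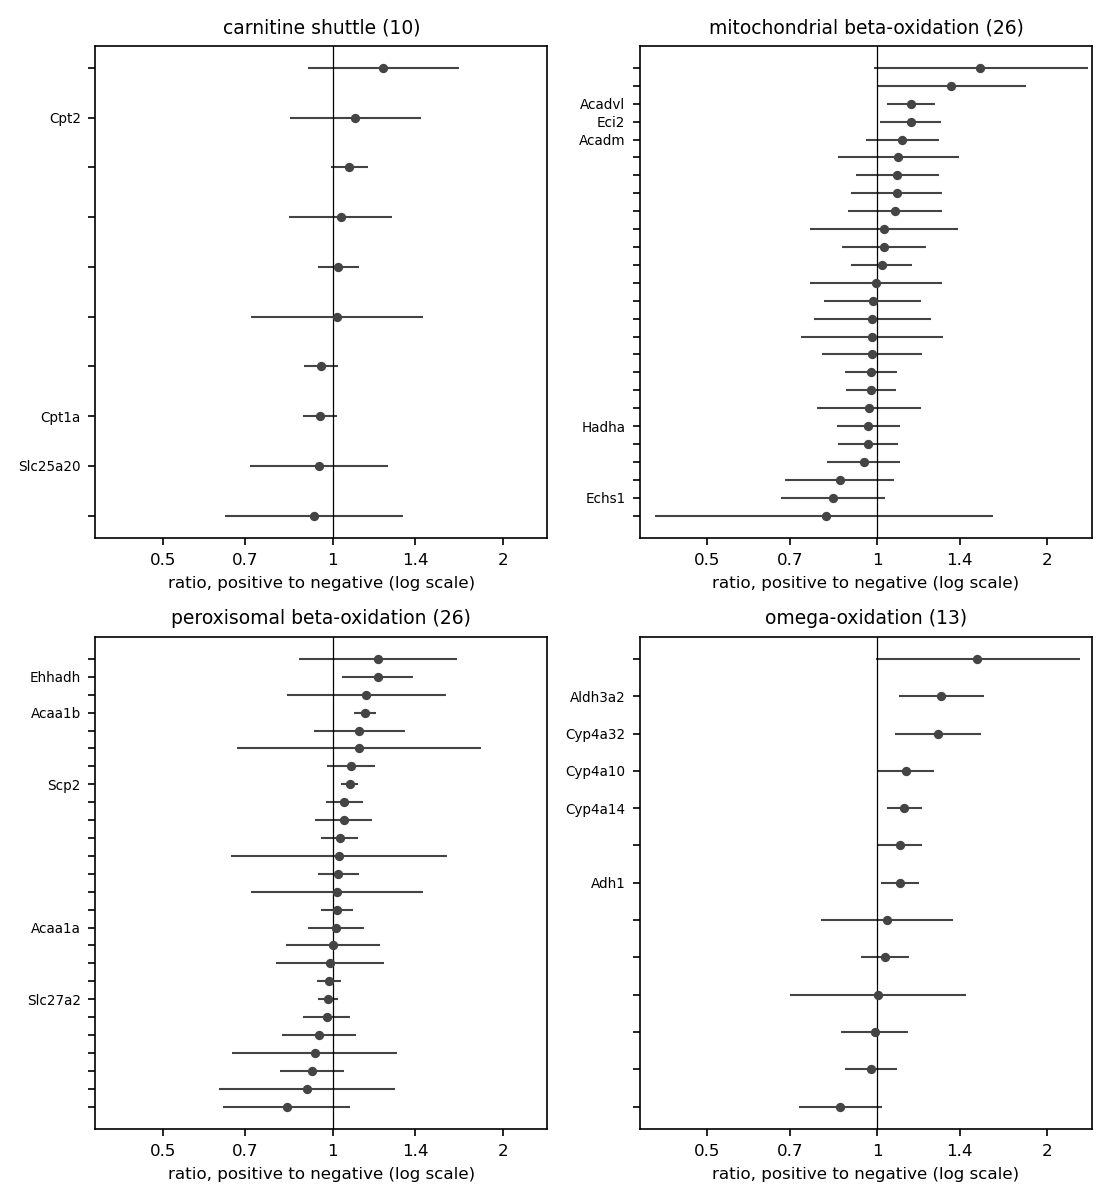
Ratio of the positive to the negative control gate (horizontal axis, log scale) for analysed genes of the carnitine shuttle (10), mitochondrial (26) and peroxisomal beta-oxidation (26 of 27 shown) and omega-oxidation (13), with names for genes described in the text and 95% counting intervals from 1 library per gate. Genes of the carnitine shuttle list, which also holds Acaca of fatty acid synthesis, lie around 1 with intervals that take it in. Acadvl (1.15) and Scp2 (1.07) have narrow intervals above 1, and omega-oxidation leans to the right.

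Ketone body synthesis and the PPAR system had medians near that of all genes. The 7 genes of ketone body synthesis and release had a median of 0.03, with 4 above 0 and 3 below. Slc16a1, a carrier of lactate and ketone bodies, was at 36.8 and 46.3 (ratio 1.26, 1.03 to 1.55). Ppara was at 284 and 289 (ratio 1.02, 0.943 to 1.10). The coactivator Ppargc1a was at 58.5 and 57.6 (ratio 0.984, 0.829 to 1.17). Ppargc1b, its relative, was lower in the positive gate, at 29.4 and 20.3 (ratio 0.690, 0.526 to 0.902). So was Esrra, a nuclear receptor that works with both, at 28.1 and 21.3 (ratio 0.759, 0.580 to 0.990). Over 22 PPARs, partners and co-regulators the median was -0.04, with 8 above 0 and 14 below. The interval lay below 1 for 3 of them (13.6%, against 4.41% of all genes) and above 1 for 0.

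Targets of PPARalpha outside beta-oxidation had a median of 0.02 over 21 genes, with 12 above 0 and 9 below. The interval lay above 1 for 2 (9.52%, against 4.92% of all genes) and below 1 for 3 (14.3%, against 4.41%). Fgf21, a fasting hormone, was at 11.5 and 12.1 (ratio 1.05, 0.712 to 1.55). Pdk4, which restrains pyruvate oxidation, was at 8.62 and 10.99 (ratio 1.27, 0.831 to 1.97). Plin2, a coat protein of lipid droplets, was at 69.6 and 71.4 (ratio 1.03, 0.878 to 1.196). The intervals of these 3 took in 1. Pnpla2, the triglyceride lipase, was at 60.6 and 50.2 (ratio 0.829, 0.695 to 0.988). Cyp2b10, better known as a target of the receptor CAR, was at 26.9 and 17.0 (ratio 0.633, 0.473 to 0.843).

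Fatty acid synthesis and bile acid genes were mostly higher in the positive gate, a direction that was not tested. Of 24 genes of fatty acid and triglyceride synthesis 19 were above 0, with a median of 0.07, 5 intervals above 1 (20.8%, against 4.92% of all genes) and 0 below. Scd1, which puts the first double bond into fatty acids, was at 1624 in the negative and 1969 in the positive gate (ratio 1.21, 1.18 to 1.25). Thrsp, a lipogenic nuclear protein, was at 365 and 417 (ratio 1.14, 1.07 to 1.22). Fasn, fatty acid synthase, was at 963 and 991 (ratio 1.03, 0.988 to 1.07), and its interval took in 1. Of 23 bile acid genes 18 were above 0, with a median of 0.10, 8 intervals above 1 (34.8%) and 0 below. Besides Cyp7a1 they held Cyp27a1, the oxidase of the side chain, at 292 and 327 (ratio 1.12, 1.04 to 1.204). Hsd3b7, which acts on the ring, was at 254 and 284 (ratio 1.12, 1.04 to 1.21). Nr1h4, the bile acid receptor FXR, was at 128 and 145 (ratio 1.13, 1.01 to 1.26), while its target Nr0b2 was at 112 and 109 (ratio 0.973, 0.861 to 1.10). Cyp7a1, Cyp27a1, Akr1c6 and Slco1b2 are on the pericentral list too.

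Cholesterol synthesis and uptake had a median of 0.01 over 24 genes. The interval lay above 1 for 4 (16.7%, against 4.92% of all genes) and below 1 for 1 (4.17%, against 4.41%). Cyp51, which demethylates lanosterol, was at 38.8 and 52.0 (ratio 1.34, 1.10 to 1.63). Lipoprotein genes had a median of 0.01 over 20, with 4 intervals above 1 (20%) and 3 below (15%). Apoa2 was at 1077 and 1235 (ratio 1.15, 1.10 to 1.19) and Apoe at 11323 and 11846 (ratio 1.05, 1.03 to 1.06), whereas Apoa5 was at 1467 and 1365 (ratio 0.930, 0.899 to 0.962). Single apolipoproteins thus lay on both sides of 1. Carriers of drugs and dyes had a median of -0.02 over 18 genes, with 4 intervals above 1 (22.2%) and 2 below (11.1%). Abcc2, which exports conjugates into bile, was at 927 and 991 (ratio 1.07, 1.03 to 1.11), and Slco2a1, a prostaglandin carrier, at 83.6 and 62.3 (ratio 0.746, 0.639 to 0.869). The carboxylesterases and arylacetamide deacetylase had a median of -0.03 over 17 genes.

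Plasma proteins were slightly lower in the positive gate on the deposited scale. Of 37 secreted proteins 25 were below 0, with 12 intervals below 1 (32.4%, against 4.41% of all genes) and 2 above. Alb was at 24303 and 23064 (ratio 0.949, 0.941 to 0.957), and Trf, the iron carrier, at 10351 and 9598 (ratio 0.927, 0.916 to 0.939). Of 20 acute phase proteins 16 were below 0, with 8 intervals below 1 (40%) and 0 above. Hpx, which binds heme, was at 1055 and 901 (ratio 0.854, 0.820 to 0.890). Under scaling to column totals 16 of the 37 secreted and 11 of the 20 acute phase proteins were below 0, beside 3568 of all 8981 genes. With totals taken without Rn45s 25 and 15 were below 0, so the split depended on which total was used. Respiratory chain genes had a median of 0.06 over 71, with 48 above 0 (67.6%, against 52.1% of all genes). Their 3 intervals above 1 (4.23%) and 2 below (2.82%) were no more than the shares over all genes (4.92% and 4.41%). Ribosomal proteins had 0.06 over 66, with 46 above 0 (69.7%), 3 intervals above 1 (4.55%) and 0 below. Citric acid cycle genes had 0.06 over 26, and glycolysis 0.01 over 24.

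Stress, clock and identity genes gave no common direction. Immediate early genes had a median of -0.02 over 24, with 2 intervals above 1 and 2 below (8.33% each, against 4.92% and 4.41% of all genes). Fos was at 264 and 214 (ratio 0.811, 0.746 to 0.882) and its partner Jun at 1333 and 1403 (ratio 1.05, 1.02 to 1.09). The 18 clock genes had a median of 0.03, and for 0 of them did the interval leave 1. NRF2 targets had 0.04 over 26, with 5 intervals above 1 (19.2%) and 1 below (3.85%), 2 of the 5 being the pericentral Gstm1 and Gstm3. The 34 hepatocyte transcription factors had a median of 0.02. Hnf4a was at 1032 and 1008 (ratio 0.977, 0.939 to 1.02) and Cebpb, which also answers to inflammation, at 335 and 285 (ratio 0.850, 0.790 to 0.915).

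**Figure D4:**
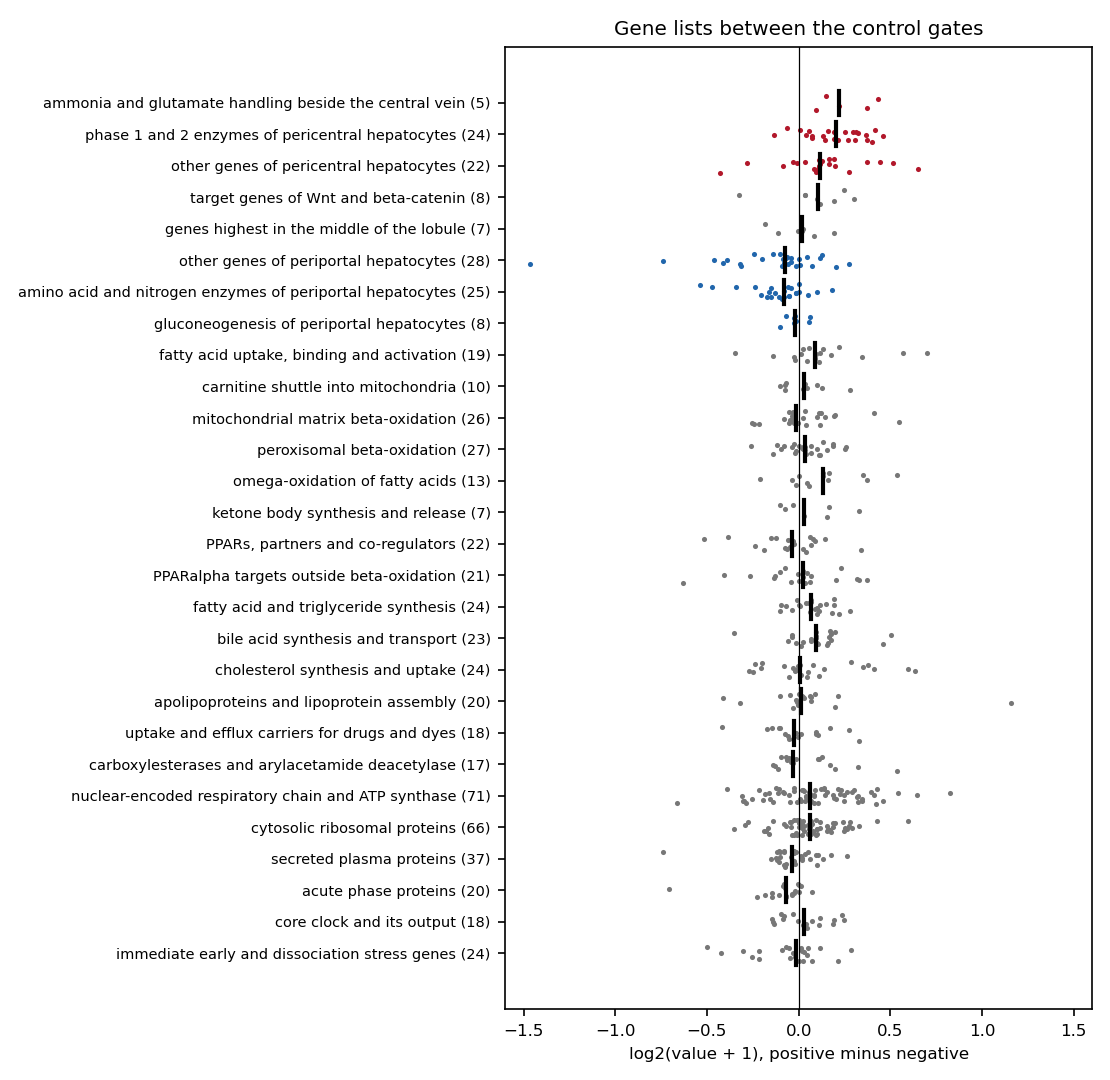
Log2 difference between the control gates (horizontal axis, positive minus negative, log2(value + 1)) for the analysed genes of 28 lists, with their number in brackets; dots are genes and bars medians. The pericentral lists (red) stand to the right, with medians of 0.11 to 0.22, the periportal lists (blue) slightly to the left, and carnitine shuttle and mitochondrial beta-oxidation at about 0.

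The genes at least 2-fold apart were nearly all low. Of the 10 lowest named, Slfn5, of the Schlafen family, had the most reads, at 21.6 in the negative and 10.1 in the positive gate (ratio 0.470, 0.326 to 0.669), and Ppm1l, a phosphatase, was at 13.96 and 6.25 (ratio 0.448, 0.279 to 0.701). The others were Sox9, Samd14, Tpcn2, Nid1, Zdhhc14, Ildr2, Elf5 and Caln1, none above 9.24 in the negative gate. Caln1, at a difference of -1.01, lay just inside the limit. On the higher side Csrp3, a muscle LIM protein, was at 2.26 and 6.68 (ratio 2.96, 1.45 to 6.53) and Sort1, sortilin, at 2.05 and 5.82 (ratio 2.83, 1.33 to 6.56). Pcnxl4, Far2, Ubald2, Ufsp2 and Aspm were the other named genes past 2-fold. Aspm (1.01) lay just inside that limit, and Depdc7 (0.99), Swap70 (0.99) and Pdcd10 (0.96) lay just outside.

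Among genes of at least 50, and leaving out small RNAs such as Rpph1 and Rmrp, genes were ranked by the near end of the interval. Of the 10 farthest from 1 on the higher side 5 were pericentral (Mup17, Cyp2c29, Glul, Cyp2e1 and Gulo). On the lower side 6 of the 10 were periportal (Sds, Apoa4, Mfsd2a, Hsd17b6, Aldh1b1 and Pigr). The pericentral list holds 37 and the periportal list 47 of the 2368 genes of that level. Both lists were chosen with earlier results of these data known, so this overlap is a description. First on the higher side was Mki67, a protein of dividing cells, at 55.6 and 88.0 (ratio 1.58, 1.35 to 1.85). The 19 analysed cell cycle genes were split, 10 above 0 and 9 below, with 2 intervals above 1: E2f8, at 9.44 and 14.2 (ratio 1.51, 1.02 to 2.25), was the other. Top2a, a topoisomerase of dividing cells, was at 8.62 and 8.19, within counting error, and Spc24, a kinetochore protein outside that list, was lower, at 66.1 and 44.6 (ratio 0.675, 0.564 to 0.806). The 2 intervals above 1 were 10.5% of the cell cycle list, against 4.92% of all genes, and 0 lay below 1. Its median was 0.14 against 0.01 over all genes, and lay between 0.01 and 0.18 over the settings run. With Mki67 included, the 34 members measured summed to 317 and 362 (ratio 1.14, 1.07 to 1.23). Mki67 held 55.6 and 88.0 of these sums, and so most of the difference between them. Aspg, an asparaginase, was at 853 and 702 (ratio 0.823, 0.785 to 0.861). Cyp2c39, Mup9, Scd1 and Clip1 completed the higher side, and Slco2a1 and Tmem25 the lower.

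Several of these genes have near-identical copies, between which reads could be divided differently in each library. The 17 Mup genes, pheromone carriers, summed to 4979.6 in the negative and 5598 in the positive gate (ratio 1.12, 1.10 to 1.14), though 5 of the 12 analysed were above 0. The 13 Cyp2c genes summed to 1442 and 1578 (1.09, 1.06 to 1.13) and the 7 Gstm genes to 974 and 1086 (1.11, 1.07 to 1.16). The 7 Cyp3a genes summed to 1454 and 1567 (1.08, 1.04 to 1.11). All 4 sums were higher in the positive gate. Eno1 was at 48.7 and 62.7 and its copy Eno1b at 79.0 and 59.5, so that their sum was at 128 and 122 (0.957, 0.853 to 1.07).

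In the bezafibrate pair the periportal and the pericentral list were both lower in the positive gate, as were lists outside zonation. The pericentral list had a median of -0.17 there, with 15 of 51 above 0, and the periportal list -0.22, with 17 of 61 above 0, when 48.4% of all genes were above 0 and 51.6% below. Secreted proteins had -0.38, respiratory chain genes -0.32, mitochondrial beta-oxidation -0.31 and ribosomal proteins -0.24 in that pair. Immediate early genes (0.30) and Wnt targets (0.13) went the other way. Rn45s took 10.5% of reads in the bezafibrate negative and 18.5% in the bezafibrate positive gate. The part of this in the medians was not tested. Sds had a difference of -0.54 in the control and 0.54 in the bezafibrate pair. Cyp2e1 had 0.32 and -0.31, and Glul 0.44 and 0.02. Cyp2f2 was lower in both positive gates, with -0.24 and -0.44. Mup17 was higher in both, with 0.65 and 0.41. Of the 59 genes at least 1.2-fold higher in the control pair 26 (44.1%) were above 0 in the bezafibrate pair, and of the 35 lower 14 (40%) were below 0; over all 2368 genes of that level 53.1% were above 0 and 46.9% below. The pairs share no library, each has 1 library per gate, and the difference between them was not tested.

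**Figure D5:**
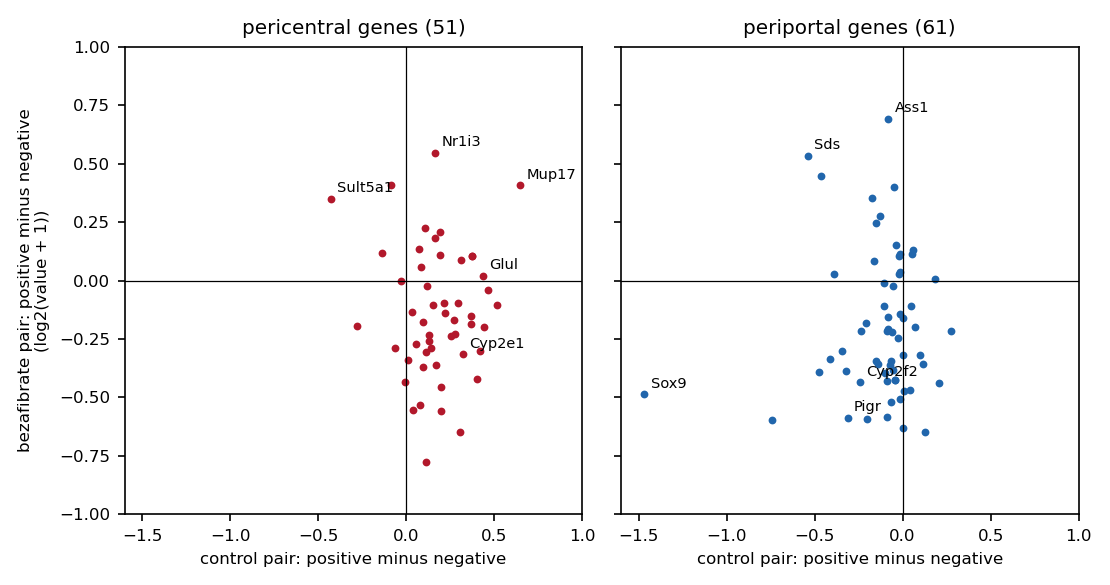
Log2 difference between positive and negative gate in the control pair (horizontal axis) and in the bezafibrate pair (vertical axis) for 51 pericentral (left) and 61 periportal genes (right). Most pericentral genes lie to the right of 0 and below it, whereas most periportal genes lie to the left of 0 and below it, with Sds and Ass1 among the exceptions.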

How the data were processed

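Total RNA of sorted mouse hepatocytes was extracted with a kit named for FFPE tissue, depleted of ribosomal RNA and sequenced as read pairs from directional libraries, per the labels' protocols. The submitters' processing notes name Trimmomatic 0.36, Bowtie2, RSEM, edgeR and the build mm10, without roles. The values deposited by the authors are a normalised signal per gene, for 13966 genes in 1 table. The method of normalization and the annotation were not given in the sources used here. Each column can be read as counts divided by 1 factor, since after division by its smallest non-zero value 100% of its values were whole to within 0.001 reads. Libraries were grouped by their descriptions.

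Genes with a mean of at least 5 over the 5 libraries were compared as differences of log2(value + 1), positive minus negative. Ratios carry 95% Clopper-Pearson intervals from the recovered reads. The reads carry no molecular identifiers and so are not independent molecules; intervals and floors cover counting error only. With 3 reads as the least that a count of 0 allows, the floor is 0.616 normalised read counts in the negative and 0.647 in the positive gate. With 1 library per group no test between the gates is possible within control. Members and the 55 gene lists were chosen with earlier results of these data known. Named genes were the 10 largest differences each way, the 10 with the interval farthest from 1 each way among genes of at least 50, the most abundant and most extreme members of the lists described, and fixed reference genes, the first 2 groups without ribosomal and small RNAs, pseudogenes and provisional names. Genes named beyond this rule were chosen after their values were seen. Alternatives were other pseudocounts, filters and scalings, the lists without near-identical copies, and an edgeR 4.0.16 fit on the recovered counts in R 4.3.3; the last 2 were chosen after the data were seen. The steps were tested on simulated data. Other steps ran in Python 3.11.15 with scipy 1.17.1, pandas 2.3.3 and numpy 2.4.6. Transcript lengths came from GENCODE for GRCm38, where 95.8% of symbols matched 1 gene, and 96.4% of the genes analysed had a length. Promoter windows came from RefSeq. Some genes that the rule takes are left out of the text.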

Additional observations from a re-analysis of the deposited data

Results flagged for a closer look

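The median log2 difference of 5 lists had opposite signs in the control and the bezafibrate pair, with at least 0.1 on each side. For the whole pericentral list it was 0.17 in the control pair and -0.17 in the bezafibrate pair. For the pericentral drug and steroid enzymes, led by Cyp2e1, Cyp3a11 and Gstm1, it was 0.21 and -0.23. Pericentral genes of ammonia and glutamate handling, such as Glul and Oat, had 0.22 and -0.11. The other pericentral genes, such as Gulo and Alas1, had 0.11 and -0.12. Omega-oxidation, with the Cyp4a genes, had 0.13 and -0.34, but 0.04 in the control pair without families of near-identical copies, which is under that limit. The first list holds the next 3, and Aldh3a2 is on both the pericentral and the omega-oxidation list, so these are not 5 separate results. Lists outside these 5 were also below 0 in the bezafibrate pair, such as secreted proteins (-0.38) and respiratory chain genes (-0.32), though immediate early genes were above it (0.30). Each pair has 1 library per gate, and the difference between the pairs was not tested.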

How the results depend on the processing

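The count of genes at least 2-fold higher in the positive gate, 13, became 2 with a pseudocount of 5, 83 without a filter and 1 with a filter at 20. The count at least 2-fold lower, 17, became 1, 149 and 2 under the same settings, 11 with the filter on the 2 control libraries alone and 11 under scaling to column totals. That scaling took the count at least 1.2-fold lower among genes of at least 50 from 35 to 20, while the count at least 1.2-fold higher lay between 49 and 74 over the alternatives run. The median of the pericentral list lay between 0.13 and 0.20, that of the periportal list between -0.08 and -0.03, of mitochondrial beta-oxidation between -0.03 and 0.02, of peroxisomal beta-oxidation between 0.02 and 0.07 and of omega-oxidation between 0.04 and 0.17, over the settings run. Under column totals the median of mitochondrial beta-oxidation (0.02) and that of secreted proteins (0.0048) took the other sign. Both stayed below the median of all genes, which was 0.05 there. The genes at least 2-fold apart were then more often higher (15) than lower. An edgeR fit of gate and treatment over 4 libraries, with 1 residual degree of freedom, tests the gate over both treatments and not within control. Of 10975 genes 409 had an unadjusted p under 0.05 by its quasi-likelihood test, a smaller share than 0.05. The fit called 2 genes higher and 3 lower at an adjusted p of 0.05. Of the 5, Gm14308, Gm14430 and Gm14434 are zinc finger genes that share sequence, and Gm20594 and Lars2 are the others. Their 4-gene group with 0610010B08Rik summed to 109 and 86.2 in the control gates. In that fit Glul, Cyp2e1, Cyp2f2 and Sds each had an adjusted p of 0.997 by edgeR's quasi-likelihood test. No paired analysis was possible because the labels carry no replicate numbers and each group has 1 library. Leaving out a replicate was not possible for the same reason. Depth limits the low genes: the floor of 3 reads is 0.616 and 0.647, and the intervals of Axin2, Lgr5 and Sox9 span wide ratios.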
